A study of Mus musculus with 41 samples.

Results

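Hbs1l, Pelo, Gtpbp1, Gtpbp2 and Abce1, 5 genes whose proteins act on ribosomes that have stopped moving, were followed by gene symbol through all conditions of the study, with Hbs1l also followed by transcript. These are 5 of 22438 genes with ribosome footprint counts and 5 of 55385 genes with RNA values, and they hold 41 of the 142552 transcripts. All 5 passed the filter on low counts in each comparison of footprints and of RNA described here. Ribosome footprints, the stretches of RNA that a ribosome shields from nuclease, were sequenced from embryos, cerebella and mouse embryonic fibroblasts (MEFs), and RNA was sequenced from MEFs.

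Embryos were whole C57BL/6NJ embryos at E8.5, either Hbs1l -/- or wild-type, with 3 replicates each that pool 5 embryos. Cerebella came from C57BL/6J mice at P14, 1 cerebellum per replicate, with 3 replicates of Atoh-Cre; Hbs1l cKO and 3 of Atoh-Cre; Hbs1l +/+. In the cKO the Hbs1l alleles were fl/- with n-Tr20 B6J/B6J, a strain variant of an arginine tRNA gene, and Cre is expressed from the Atoh1 promoter, which is active in the precursors of granule cells, so other cells of the cerebellum keep 1 Hbs1l allele. MEFs were C57BL/6 primary cells isolated at E13, each replicate from 1 embryo, and all MEF groups, controls included, carried CAG-Cre ER and n-Tr20 B6J/B6J and were exposed to 1 μM tamoxifen (4-OHT) for 48 hr. Their genotypes were Hbs1l fl/-, Pelo fl/fl or Upf2 fl/fl, called here Hbs1l-/-, Pelo-/- and labelled Upf2-/- MEFs, and CAG-Cre ER alone as control. Footprints were made from 3 replicates of each mutant and 3 control libraries in each mutant's sequencing pool. RNA was made from 3 control, 3 Hbs1l-/-, 2 Pelo-/- and 3 labelled Upf2-/- cultures.

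A ribosome that reaches the end of a broken mRNA, or that cannot go on, has no stop codon to release it. Pelota, the Pelo protein, resembles the termination factor eRF1 and enters the empty A site together with HBS1L, a GTPase related to eRF3, and the ATPase ABCE1 then splits the subunits, as it also does after normal termination. GTPBP1 and GTPBP2 are a further pair of translational GTPases that resolve ribosomes stalled on codons within an open reading frame, and loss of Gtpbp2 in mice with the n-Tr20 variant is known to cause neurodegeneration. The factors that follow, the Ski complex and the RNA exosome, degrade the mRNA from its 3′ end.

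On GRCm38, in the Gencode M21 annotation, Hbs1l (ENSMUSG00000019977.16) lies at chr10:21295979-21368898 on the plus strand with 10 transcripts. Pelo (ENSMUSG00000042275.9) lies at chr13:115088355-115090186 on the minus strand with 1 transcript, inside Itga1, which is on the same strand. Gtpbp1 (ENSMUSG00000042535.9) lies at chr15:79690845-79721479 on the plus strand with 9 transcripts, Gtpbp2 (ENSMUSG00000023952.13) at chr17:46161032-46169370 on the plus strand with 17 transcripts, and Abce1 (ENSMUSG00000058355.8) at chr8:79683462-79711740 on the minus strand with 4 transcripts. The deleted part of Hbs1l is exon 5 of the full-length transcripts, and that of Pelo is exon 2, which holds 429 of its 1155 coding bases (37.1%).

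Hbs1l gives rise to several proteins by what exon 4 is joined to, and the deletion removes only some of these junctions. Hbs1l-209 and Hbs1l-201 are the full-length forms and use exon 5 from a start site that differs by 9 bases. Hbs1l-203, which encodes the shorter isoform II, instead runs from exon 4 into a single last exon at chr10:21309099-21311209 with 1418 of its 1836 coding bases, and Hbs1l-202 runs into another last exon at chr10:21309743-21311206. The 4 junctions are shown because they tell the deleted from the retained forms. Each has the last 15 bases of exon 4 in lower case and the first 15 bases of the next exon in capitals, 5′ to 3′ on the plus strand, as in the transcript sequences of that annotation.
Hbs1l-209 junction: gacagccttcaaaagGAAAATCAGTTATAT
Hbs1l-201 junction: gacagccttcaaaagTTATATCTCGGTCAT
Hbs1l-203 junction: gacagccttcaaaagGAGTCTTATTTTCTT
Hbs1l-202 junction: gacagccttcaaaagCGTGAAAGTCCATCC
The deleted exon itself, in the form used by Hbs1l-209 (chr10:21336967-21337075), is shown with the 9 bases that Hbs1l-201 lacks in capitals. Its 109 bases are 5.33% of the 2046 coding bases of Hbs1l-209, and dividing them by 3 leaves 1 base.
Hbs1l-209 exon 5: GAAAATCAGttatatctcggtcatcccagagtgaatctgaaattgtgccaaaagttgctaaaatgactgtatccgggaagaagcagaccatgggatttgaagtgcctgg

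Libraries held 2634480 to 7298812 footprints in embryos, 10919139 to 22591768 in cerebella and 5782990 to 25607974 in MEFs, and RNA libraries held 22713643 to 86425762 estimated counts. Fibroblast markers (6 genes, such as Col1a1) summed to 18012 to 18200 CPM in summed control, 21107 to 25422 in Hbs1l-/-, 22986 to 29364 in Pelo-/- and 24953 to 27142 in labelled Upf2-/- MEFs, and granule cell markers (6 genes, such as Gabra6) to 3081 to 4979 CPM in cerebella. Upf2 itself, the targeted gene of the third mutant, was higher over the whole gene, in counts that do not separate the deleted part and so do not test the deletion. In footprints it was at 115, 113 and 119 CPM in the libraries labelled Upf2-/- and at 54.9, 49.2 and 58.3 CPM in their controls. In RNA it was also higher there (log2 fold change 1.33, SE 0.24, edgeR adjusted p = 0.00331). Of its 2 transcripts tested, 1 was called (log2 fold change 3.77, edgeR adjusted p = 0.00327, at 4.45 to 10.7 TPM against 0.485 to 0.546 TPM) and the other, more abundant in controls, was not (0.71, adjusted p = 0.214). The authors report that targets of nonsense-mediated decay and transcripts with retained introns built up in their Upf2-/- cells. Hbs1l-206, a form with a retained intron, was at 2.12 to 3.00 TPM here and 0.19 to 0.91 TPM in controls, without passing the threshold. Same-numbered MEF control libraries of the 3 pools differed by little more than counting noise (chi-square per gene 1.10 to 1.19 in 9 pairs, against 4.06 to 12.6 between replicates of a pool), so the 3 MEF comparisons of footprints share their control samples, as do the 3 comparisons of RNA.

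Abce1 had the highest footprint density of the 5 genes in each control tissue, and Hbs1l stood low among them. Densities are CPM scaled with TMM factors over all footprint samples and divided by the kilobases of coding sequence of all the gene's transcripts together, and same-numbered MEF controls were summed as 1 sample. For Abce1 they were 152 ± 0.569 in embryos, 52.4 ± 1.21 in cerebella and 161 ± 16.5 in MEFs (mean ± SD, n = 3). Between 78.9% and 92.3% of the genes with at least 1 CPM per kb had a lower density than Abce1. Pelo was at 44.5 ± 6.46, 19.5 ± 3.55 and 36.1 ± 3.41 per kb (SD, n = 3, in the same order of tissues). Hbs1l, its GTPase partner, was at 13.1 ± 1.29, 10.1 ± 0.935 and 12.7 ± 1.11 (SD, n = 3), with 36.0% to 44.99% of genes below it. The samples of Hbs1l were below those of Pelo in all 3 tissues. Divided by the longest coding sequence instead, which for Hbs1l is 2046 of 3464 bases, Hbs1l came to 22.1 ± 2.18, 17.0 ± 1.58 and 21.5 ± 1.88 per kb (SD, n = 3), and in cerebella its range then overlapped that of Pelo.

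The GTPases Gtpbp1 and Gtpbp2, which act as a related pair, had unlike patterns over the tissues. Gtpbp1 was at 38.5 ± 2.91 per kb in embryos, 34.5 ± 0.394 in cerebella and 16.8 ± 1.13 in MEFs (SD, n = 3). Gtpbp2 was at 4.69 ± 0.971 in embryos, 19.6 ± 0.706 in cerebella and 6.74 ± 0.666 in MEFs (SD, n = 3). In cerebella the order was therefore Abce1, Gtpbp1, then Gtpbp2 and Pelo, whose ranges of samples overlapped, then Hbs1l, although by the longest coding sequence Gtpbp2 lay above Pelo (23.0 to 24.8 against 15.5 to 21.7 per kb). In embryos it was Abce1, then Pelo and Gtpbp1 with overlapping ranges, Hbs1l and Gtpbp2. In MEFs all 5 ranges were apart, in the order Abce1, Pelo, Gtpbp1, Hbs1l, Gtpbp2, although by the longest coding sequence Hbs1l and Gtpbp1 overlapped.

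**Figure D1:**
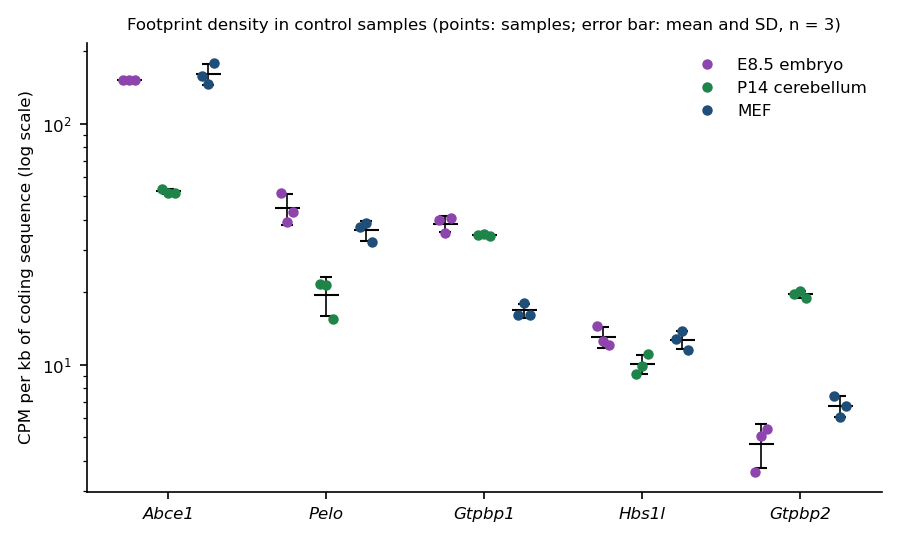
Footprint density of the 5 genes in control embryos, cerebella and MEFs (CPM per kb of coding sequence, log scale; points are samples, bars the mean ± SD, n = 3). Gtpbp2 is highest in cerebella (mean 19.6), whereas Abce1 and Pelo are lowest there (52.4 and 19.5).

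Between control tissues, edgeR called 4 of the 5 genes in embryos against cerebella, 3 of 5 in MEFs against embryos and 5 of 5 in MEFs against cerebella. These shares stand against 80.2%, 77.2% and 83.2% of all genes tested. The call of Hbs1l in embryos against cerebella held in 1 of 3 other settings and 1 of 6 fits that leave out 1 library. In MEFs against embryos, that of Pelo held in 2 of 4 and 2 of 6, and that of Gtpbp2 in 3 of 4 and 4 of 6. That of Hbs1l in MEFs against cerebella held in 3 of 4 and 5 of 6. Against cerebella, Abce1 was higher in embryos (log2 fold change 1.48, SE 0.11, edgeR adjusted p = 6.93e-07) and in MEFs (1.65, SE 0.11, adjusted p = 1.11e-06). Gtpbp2 was lower than in cerebella in both (-2.10 in embryos, SE 0.17, adjusted p = 1.31e-06, and -1.51 in MEFs, SE 0.11, adjusted p = 1.53e-06). Gtpbp1 was lower in MEFs than in embryos (-1.19, SE 0.10, adjusted p = 1.89e-08) and cerebella (-1.01, SE 0.09, adjusted p = 8.82e-06), whereas embryos and cerebella did not differ past the threshold (0.10, SE 0.11, adjusted p = 0.442). Tissues were sequenced in separate batches, and fragments of 26 to 34 nt were isolated from cerebella and 15 to 34 nt from embryos and MEFs, which cannot be told apart from the tissue.

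Among all genes with a mean of at least 5 CPM, the one whose level was most like that of Abce1 over 24 samples was Etf1, which encodes eRF1 (Pearson r = 0.995), followed by Wdr75 and Fbxo30 (0.993 each). For Pelo, over the 21 samples in which it was not deleted, these were Samm50 (0.963), Pcbp1 (0.950) and Sf3b4 (0.947). For Gtpbp1 they were N4bp3 (0.949), Ramp2 (0.947) and Llgl1 (0.945), and for Gtpbp2 Psd (0.961), Scg2 (0.957) and Slc6a9 (0.957), each over 24 samples. For Hbs1l, over the 15 samples in which it was not deleted, they were Tceal9 (0.919), Mrpl34 (0.914) and Cd24a (0.913). The points share tissue, batch and scaling, and the values describe levels over tissues and genotypes together.

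In Hbs1l-/- embryos, Hbs1l footprints fell and none of the other 4 genes passed the threshold. Hbs1l stood at 2.98, 2.77 and 9.07 CPM in the 3 mutant libraries, from 21, 11 and 25 footprints, and at 60.0, 52.5 and 50.6 CPM in the wild-type libraries. The mutant libraries were all far below the wild-type ones, where the groups were apart for 23.8% of all genes tested, and the fall was 12.1-fold (log2 fold change -3.60, SE 0.35, edgeR adjusted p = 9.85e-05). Without mutant replicate 3, the library with the highest value, the log2 fold change was -4.22. Hbs1l was thus the 1 member called of 5, where 1.87% of the 11416 genes tested were called in either direction.

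Pelo, the partner of Hbs1l, was at 60.2, 51.6 and 32.7 CPM in Hbs1l-/- embryos and at 71.1, 54.2 and 59.9 CPM in wild-type embryos. These ranges overlapped, with 1 mutant library well below the rest (log2 fold change -0.34, SE 0.22, edgeR adjusted p = 0.411). Abce1 was at 324, 418 and 423 CPM in mutant and at 326, 328 and 328 CPM in wild-type embryos (0.24, SE 0.14, edgeR adjusted p = 0.370), so that 2 mutant libraries lay above all others. Without the third mutant library, replicate 1, Abce1 passed the threshold (0.36, adjusted p = 0.0431). In the same 2 libraries, genes of low GC content were high as a whole: the 25% of genes with the lowest GC content had a median log2 ratio of 0.31 and 0.29 to the control mean, and with a correction for GC content and length, chosen after seeing the data, the fold change of Abce1 was -0.00083 on the log2 scale. Gtpbp1 (-0.24, SE 0.15, adjusted p = 0.413) and Gtpbp2 (-0.22, SE 0.29, adjusted p = 0.721) had overlapping ranges too. For Gtpbp1 the overlap was narrow, from 79.1 to 94.7 CPM in mutant and from 94.6 to 109 CPM in wild-type embryos, and with factors over all footprint samples the ranges were apart (66.4 to 78.1 against 78.5 to 90.3 CPM). Cell type markers moved with the genotype: erythroid markers summed to 3182 to 8116 CPM in mutant and 13058 to 17077 in wild-type embryos, embryo heart markers to 288 to 413 and 628 to 745, and trophoblast markers to 186 to 868 and 107 to 130. Fibroblast markers (578 to 781 and 820 to 941 CPM), embryo neural markers (71.1 to 127 and 129 to 132) and endothelium markers (421 to 630 and 353 to 370) were apart as well. Their part in the values of these genes was not tested.

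In cerebella of the Hbs1l cKO, Hbs1l was again the 1 member called, and more of it remained. It stood at 14.9, 15.7 and 12.8 CPM in cKO and at 37.8, 40.0 and 44.7 CPM in control cerebella, with no overlap, which held for 18.3% of all genes tested. The fall was 2.83-fold (log2 fold change -1.50, SE 0.13, edgeR adjusted p = 0.0128), so that the cKO kept 35.3% of the fitted control level, where 0.0624% of the 14430 genes tested were called. Since whole cerebella were profiled, fewer cells of a type and less RNA per cell cannot be told apart. The call was lost without cKO replicate 1 (adjusted p = 0.125), cKO replicate 3 (0.129), control replicate 1 (0.0538) or control replicate 2 (0.094), and the 6 fits that leave out 1 library had log2 fold changes between -1.56 and -1.42. It was also lost with the replicate numbers as a block (-1.50, adjusted p = 0.0567).

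The other 4 genes differed by at most 0.18 on the log2 scale in cerebella. Pelo was at 27.1, 25.8 and 27.8 CPM in cKO and at 29.7, 28.9 and 20.8 CPM in control cerebella (0.03, SE 0.15, edgeR adjusted p = 0.957). Abce1 was at 126, 97.8 and 110 CPM against 115, 108 and 109 CPM (0.01, SE 0.13, adjusted p = 0.98). Gtpbp1 (-0.03, SE 0.12, adjusted p = 0.938) and Gtpbp2 (-0.18, SE 0.12, adjusted p = 0.564) likewise had overlapping groups. Markers of 4 cell types were apart between the genotypes: Purkinje cell markers summed to 3563 to 3959 CPM in cKO and 4669 to 6641 in control cerebella, granule cell progenitor markers to 140 to 254 and 74.3 to 86.0, embryo neural markers to 86.9 to 116 and 67.4 to 81.4, and macrophage markers to 123 to 130 and 95.6 to 109, and their part in these values was not tested.

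**Figure D2:**
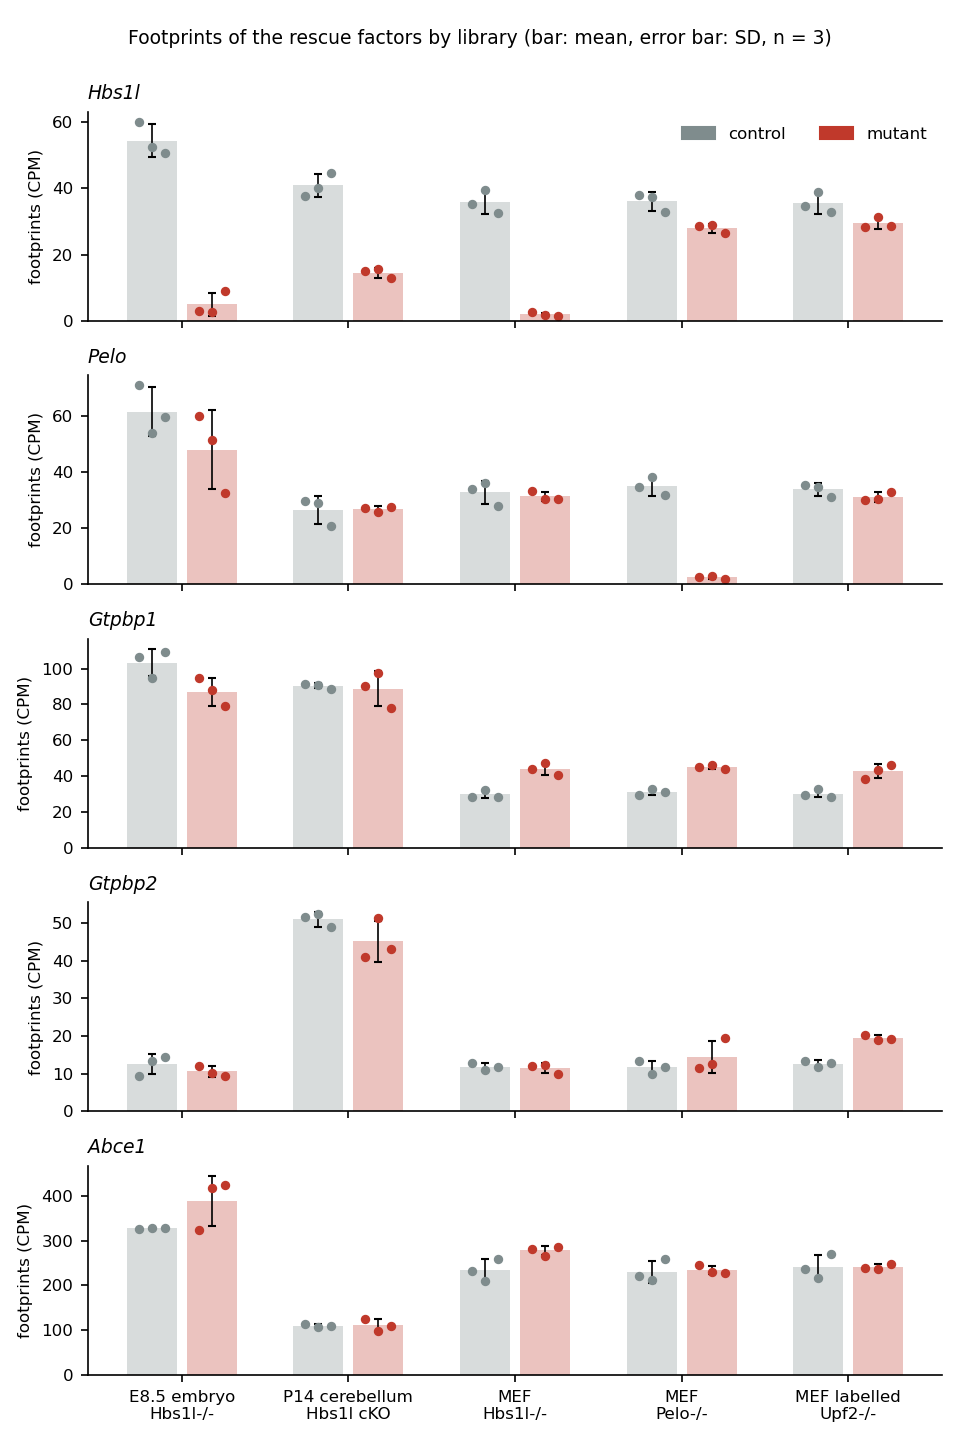
Footprints of each gene in every library (CPM, scaled within each comparison; bars are means, error bars SD, n = 3). Hbs1l and Pelo are low where they were deleted, and Gtpbp1 is higher in all 3 MEF mutants (38.4 to 47.4 CPM) than in the MEF controls (28.6 to 33.1 CPM) but not in embryos or cerebella.

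In Hbs1l-/- MEFs, Hbs1l footprints fell, Gtpbp1 and Abce1 footprints rose, and Pelo and Gtpbp2 did not pass the threshold. Hbs1l stood at 2.59, 1.68 and 1.51 CPM, from 37, 10 and 17 footprints, against 35.3, 39.5 and 32.6 CPM in controls. This was a 17.7-fold fall (log2 fold change -4.15, SE 0.18, edgeR adjusted p = 1.65e-08). With it 3 of the 5 genes were called, where 34.1% of the 11984 genes tested were called, 17.4% upward and 16.7% downward.

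Pelo was at 33.3, 30.5 and 30.7 CPM in Hbs1l-/- MEFs and at 34.1, 36.2 and 28.1 CPM in controls, with the mutant range inside the control range (log2 fold change -0.06, SE 0.11, edgeR adjusted p = 0.721). Its sign depended on the fit, with 0.02 after the correction for GC content and length. Footprints do not measure the amount of protein. The authors report less PELO protein in Hbs1l-/- MEFs and loss of HBS1L protein in Pelo-/- MEFs, with the mRNA of the partner unchanged. Gtpbp1 was at 44.2, 47.4 and 40.9 CPM against 28.7, 32.5 and 28.7 CPM in controls. All 3 mutant libraries were above the controls (0.55, SE 0.09, adjusted p = 5.74e-04). Gtpbp2 was at 12.1, 12.4 and 9.96 CPM against 12.9, 10.9 and 11.8 CPM (-0.05, SE 0.14, adjusted p = 0.801), and its ranges overlapped.

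Abce1 was at 282, 266 and 286 CPM in Hbs1l-/- MEFs and at 233, 209 and 259 CPM in controls. The groups were apart, as for 46.4% of all genes tested, and the rise was 1.19-fold (log2 fold change 0.25, SE 0.08, edgeR adjusted p = 0.0218). Of the 6 fits that leave out 1 library, 4 lost this call: those without mutant replicate 1 (adjusted p = 0.0769), mutant replicate 3 (0.0633), control replicate 1 (0.0805) and control replicate 2 (0.0722).

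In Pelo-/- MEFs, Pelo footprints fell, Hbs1l footprints fell by less and Gtpbp1 footprints rose. Pelo stood at 2.81, 2.98 and 2.00 CPM, from 47, 49 and 52 footprints, against 34.7, 38.4 and 31.8 CPM in controls, a 13.7-fold fall (log2 fold change -3.78, SE 0.16, edgeR adjusted p = 1.64e-07). In this comparison 3 of the 5 genes were called, where 44.1% of the 12486 genes tested were, 22.9% upward and 21.2% downward. Counts of Pelo cover the whole coding sequence, of which the first exon is retained.

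Hbs1l was at 28.5, 28.9 and 26.4 CPM in Pelo-/- MEFs and at 38.0, 37.5 and 32.8 CPM in controls. All mutant libraries were below the controls, which held for 55.4% of all genes tested in one direction or the other, and the fall was 1.29-fold (log2 fold change -0.37, SE 0.09, edgeR adjusted p = 0.00692). Hbs1l in Pelo-/- MEFs and Pelo in Hbs1l-/- MEFs, at -0.37 and -0.06, are values of different genes, and a difference between them was not tested. The change of Hbs1l did not differ past the threshold between Pelo-/- MEFs and those labelled Upf2-/-. In that interaction edgeR called 13% of all genes and, of the 5 members, Pelo alone.

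Gtpbp1 was at 45.3, 46.2 and 44.1 CPM in Pelo-/- MEFs and at 29.5, 33.1 and 31.4 CPM in controls. The groups did not overlap, and the rise was 1.44-fold (log2 fold change 0.53, SE 0.08, edgeR adjusted p = 4.15e-04). Gtpbp2 was at 11.5, 12.5 and 19.4 CPM against 13.5, 9.92 and 11.7 CPM, with 1 mutant library above the rest (0.32, SE 0.20, adjusted p = 0.228). Abce1 was at 245, 231 and 228 CPM against 220, 212 and 258 CPM, with overlapping ranges (0.03, SE 0.08, adjusted p = 0.789), a sign that also depended on the fit.

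In the MEFs labelled Upf2-/-, where a gene of nonsense-mediated decay was targeted, both Gtpbp genes rose. Gtpbp1 was at 38.4, 43.7 and 46.0 CPM against 29.5, 32.7 and 28.6 CPM in controls, all above (log2 fold change 0.50, SE 0.09, edgeR adjusted p = 0.00118). Gtpbp2 was at 20.3, 19.0 and 19.2 CPM against 13.4, 11.7 and 12.9 CPM, all above (0.62, SE 0.11, adjusted p = 0.00113). With Hbs1l, 3 of the 5 genes were called, where 43.4% of the 12166 genes tested were, 22.3% upward and 21.1% downward.

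Hbs1l in these MEFs was at 28.4, 31.3 and 28.5 CPM against 34.8, 38.9 and 32.8 CPM (log2 fold change -0.26, SE 0.09, edgeR adjusted p = 0.0395). The groups were apart, as for 54.1% of all genes tested, but the call was lost with DESeq2 (adjusted p = 0.0869), with the replicate numbers as a block (0.0513), and without mutant replicate 1 (0.107) or 3 (0.102) or control replicate 1 (0.0833) or 2 (0.125). Pelo (-0.12, SE 0.09, adjusted p = 0.291) and Abce1 (-0.00, SE 0.08, adjusted p = 0.984) had overlapping groups, with Abce1 at 238, 236 and 248 CPM against 237, 217 and 269 CPM. Macrophage markers (4 genes) summed to 83.3 to 110 CPM in summed control MEFs, 145 to 188 in Hbs1l-/-, 288 to 413 in Pelo-/- and 110 to 140 in labelled Upf2-/- MEFs, so that these and the fibroblast markers were higher in all 3 mutants, as Gtpbp1 was. Glia markers (5 genes) were also apart and higher in all 3, at 16.2 to 18.3 CPM in summed controls and 20.5 to 42.4 in mutants. Granule cell progenitor markers (4 genes) were lower, at 1144 to 1213 and 976 to 1142. In each MEF group only 3 or 4 of the 5 glia genes and 2 of the 4 progenitor genes reached 1 CPM in any library. Endothelium markers summed to 47.5 to 60.5 CPM in summed controls, 34.9 to 36.5 in Hbs1l-/- and 22.6 to 29.0 in Pelo-/- MEFs. In the same order, granule cell markers summed to 33.8 to 46.5, 21.6 to 23.8 and 14.6 to 18.6 CPM. Purkinje cell markers summed to 3.78 to 5.20, 0.85 to 2.96 and 1.46 to 1.87 CPM. Only 2 of the 6 granule cell genes and 1 of the 3 Purkinje cell genes reached 1 CPM in any library of a MEF group. These sums therefore rest on few genes of each list and were not read as cell content. Visceral endoderm and yolk sac markers reached at most 0.26 CPM in summed controls, and 0.73 to 51.7 in Pelo-/- and 0.73 to 11.3 in labelled Upf2-/- MEFs. Their part in the values of the 5 genes was not tested.

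The effect on Gtpbp1 of losing Hbs1l was compared between tissues as an interaction over 12 libraries. It differed between embryos and MEFs (log2 difference -0.78, SE 0.17, edgeR adjusted p = 0.0106), where 7.46% of genes were called. Between cerebella and MEFs the difference was -0.55 (SE 0.15, adjusted p = 0.0595), which passed the threshold with DESeq2 (0.00898) and with RLE factors (0.0396). Between embryos and cerebella it was -0.21 (SE 0.18, adjusted p = 0.616). For Pelo the 3 tissue differences had adjusted p values of 0.576 to 0.797, for Gtpbp2 of 0.801 to 0.991 and for Abce1 of 0.517 to 1.

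For Hbs1l itself, the fall was smaller in cerebella than in embryos (log2 difference -2.11, SE 0.39, edgeR adjusted p = 0.0252, lost in 7 of 12 fits that leave out 1 library) and than in MEFs (2.68, SE 0.25, adjusted p = 1.35e-04), where 0.732% and 4.87% of genes were called. Between embryos and MEFs the difference was 0.52 (SE 0.44, adjusted p = 0.507). Batch and tissue go together in these comparisons and cannot be told apart.

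Between the 3 MEF mutants the effect on Gtpbp1 differed by no more than 0.05 on the log2 scale, with SEs of 0.12 to 0.13 (edgeR adjusted p = 0.871 to 0.952), where 5.55% and 13% of genes were called between Pelo-/- MEFs and the Hbs1l-/- and labelled Upf2-/- MEFs. The effect on Gtpbp2 was larger in the MEFs labelled Upf2-/- than in Hbs1l-/- MEFs (log2 difference 0.67, SE 0.17, adjusted p = 0.0300), where 4.93% of genes were called, but 7 of the 12 fits that leave out 1 library lost this call (adjusted p of 0.0511 to 0.092): those without Hbs1l-/- replicate 3, without replicate 1 of its controls, without any 1 of the 3 labelled Upf2-/- libraries, and without replicate 1 or 2 of their controls. These fits count the control libraries of the pools as separate samples, and with same-numbered controls summed the difference was 0.77 (adjusted p = 0.0015), while DESeq2, RLE factors and no filter kept the call as well. Between Pelo-/- MEFs and those labelled Upf2-/- it was -0.29 (SE 0.25, adjusted p = 0.502). With 1 library left out this difference ran from -0.57 to -0.15, and 1 of the 12 fits called it (adjusted p = 0.0476).

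RNA was measured in MEFs as estimated counts per transcript, summed per gene. In Hbs1l-/- MEFs, Hbs1l RNA was at 9.54, 11.5 and 12.04 CPM against 72.3, 76.0 and 79.9 CPM in controls, a 6.86-fold fall (log2 fold change -2.78, SE 0.12, edgeR adjusted p = 1.80e-05). Gtpbp1 RNA was at 75.7, 66.95 and 73.9 CPM against 46.6, 46.7 and 51.3 CPM. All 3 mutant libraries were higher (0.58, SE 0.09, adjusted p = 0.00374), beside 0.55 for its footprints. These were the 2 genes called of 5, where 23.1% of the 15318 genes tested were.

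Pelo RNA in Hbs1l-/- MEFs was at 31.1, 26.1 and 26.6 CPM against 23.8, 23.5 and 24.7 CPM (log2 fold change 0.22, SE 0.11, edgeR adjusted p = 0.167). Gtpbp2 RNA was at 18.7, 17.7 and 17.0 CPM against 14.6, 13.6 and 14.8 CPM (0.31, SE 0.10, adjusted p = 0.0568, and 0.0434 with DESeq2). Both genes had mutant libraries above all controls, as was so in either direction for 44.3% of all genes, without passing the threshold. Abce1 RNA was at 52.7, 113 and 114 CPM against 123, 142 and 132 CPM (-0.50, SE 0.25, adjusted p = 0.167, and 0.00379 without the filter on low counts), so that all mutant libraries were below the controls and 1 of them far below the rest.

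In Pelo-/- MEFs, Pelo and Abce1 RNA fell, the 2 genes called of 5, where 32.1% of the 14705 genes tested were. Pelo RNA was at 0.549 and 0.0867 CPM against 23.4, 23.9 and 24.7 CPM in controls (log2 fold change -6.15, SE 0.36, edgeR adjusted p = 3.99e-04). Abce1 RNA was at 47.3 and 32.1 CPM against 121, 144 and 132 CPM, a 3.33-fold fall (-1.73, SE 0.17, adjusted p = 0.00106). Both mutant libraries were far below all controls for both genes, where 62.2% of all genes had groups apart in one direction or the other. Hbs1l RNA was at 73.7 and 88.4 CPM against 71.0, 77.3 and 79.7 CPM and overlapped them (0.09, SE 0.10, adjusted p = 0.523), whereas its footprints had fallen. Gtpbp1 RNA was at 58.4 and 54.8 CPM against 45.7, 47.5 and 51.1 CPM (0.23, SE 0.09, adjusted p = 0.0779), and Gtpbp2 RNA had a log2 fold change of 0.15 (SE 0.10, adjusted p = 0.272), which came to -0.01 with the correction for GC content and length.

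In the MEFs labelled Upf2-/-, Gtpbp2 RNA was at 24.1, 27.1 and 31.99 CPM against 14.8, 13.8 and 15.001 CPM, all above the controls, as 39.9% of all genes had groups apart, a 1.91-fold rise (log2 fold change 0.93, SE 0.14, edgeR adjusted p = 0.00115). It was the 1 gene called of 5, where 20% of the 15983 genes tested were, 13.2% upward. Gtpbp1 RNA was at 49.9, 61.5 and 65.0 CPM against 47.4, 47.5 and 51.9 CPM, with overlapping groups (0.27, SE 0.12, adjusted p = 0.151). With 1 library left out it ran from 0.20 to 0.38, and 1 of the 6 fits called it (adjusted p = 0.0494). Abce1 RNA was at 117, 98.5 and 58.0 CPM against 125, 144 and 134 CPM (-0.56, SE 0.21, adjusted p = 0.0803), all below the controls, and 4 of the 7 other fits with all libraries called it, among them DESeq2 (0.0204). Hbs1l (-0.10, SE 0.13, adjusted p = 0.617) and Pelo (-0.10, SE 0.12, adjusted p = 0.582) overlapped their controls.

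**Figure D3:**
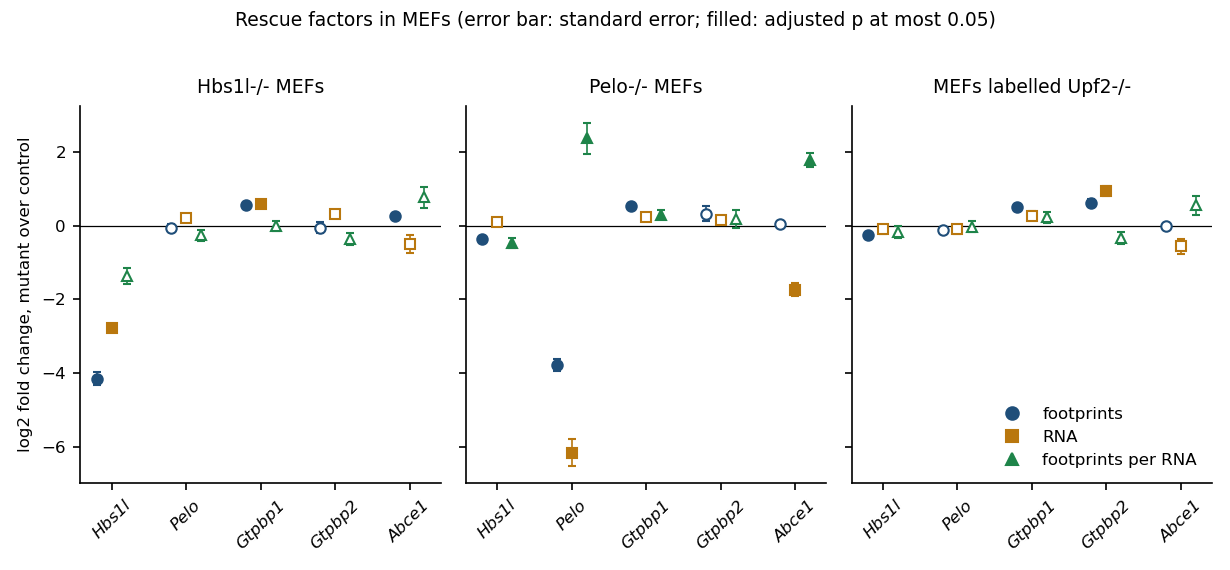
Log2 fold changes of the 5 genes in the 3 MEF mutants for footprints, RNA and footprints per RNA (points, with the standard error; filled where the adjusted p is at most 0.05). Gtpbp1 footprints lie between 0.50 and 0.55 in all 3, and the RNA of Abce1 in Pelo-/- MEFs (-1.73) lies apart from its footprints (0.03).

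The level of Abce1 RNA moved with a property of whole libraries. Abce1 has a transcript of 40.3% GC, and 5.58% of the RNA genes tested have a lower value. In the library of Hbs1l-/- MEFs with the least Abce1 RNA, the 25% of genes with the lowest GC content had a median log2 ratio of -0.35 to the control mean, against -0.07 and -0.12 in the other Hbs1l-/- libraries. Both Pelo-/- libraries stood at -0.30 and -0.37, the labelled Upf2-/- libraries at -0.05, -0.10 and -0.32, and the controls between -0.04 and 0.09. With the correction for GC content and length, which was chosen after seeing the data, Abce1 RNA in Pelo-/- MEFs still passed the threshold with a smaller fall (log2 fold change -1.27, edgeR adjusted p = 0.00115). In the MEFs labelled Upf2-/- it was then at -0.45 (adjusted p = 0.0436) and in Hbs1l-/- MEFs at -0.34 (adjusted p = 0.185). How much of the fall goes with the libraries' GC trend beyond this correction was not tested.

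**Figure D4:**
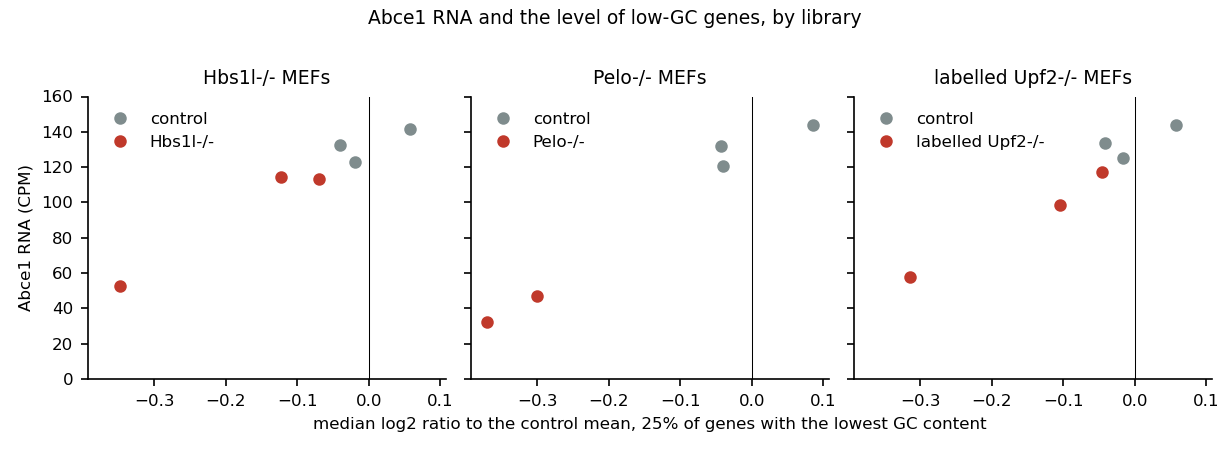
Abce1 RNA in every MEF library (CPM, scaled within each comparison) against the median log2 ratio of the 25% of genes with the lowest GC content. In each panel the libraries with the lowest Abce1 RNA, 52.7, 32.1 and 58.0 CPM, are also those furthest to the left (-0.35, -0.37 and -0.32).

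The other members lie elsewhere in GC content, at 47.9% for Hbs1l, 56.0% for Gtpbp2, 56.5% for Gtpbp1 and 57.9% for Pelo. After the correction, Gtpbp1 RNA in Hbs1l-/- MEFs remained called (log2 fold change 0.43, edgeR adjusted p = 0.00222), as did Gtpbp2 RNA in the MEFs labelled Upf2-/- (0.73, adjusted p = 6.51e-04). Gtpbp1 RNA in Pelo-/- MEFs and in those labelled Upf2-/- came to 0.03 and 0.07. Pelo RNA in the MEFs labelled Upf2-/-, not called before, came to -0.29 with an adjusted p of 0.0349. The footprints of Gtpbp1 kept their calls in all 3 mutants (0.55, 0.45 and 0.44, adjusted p of at most 0.00104).

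Footprints relative to RNA, the translation efficiency, were compared between genotypes with 1 model over both assays. In Hbs1l-/- MEFs none of the 5 genes passed the threshold, and 2 of 13146 genes did (0.0152%). Hbs1l itself had the largest difference (log2 -1.36, SE 0.22, edgeR adjusted p = 0.0563), and it passed the threshold with DESeq2 (5.75e-05), without the filter on low counts (0.00556) and with the GC correction (0.0364). Gtpbp1 stood at -0.01 (SE 0.13, adjusted p = 0.997), from 0.55 in footprints and 0.58 in RNA.

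In Pelo-/- MEFs 4 of the 5 genes were called, where 40.5% of 13701 genes were. Abce1 had 1.77 (SE 0.19, edgeR adjusted p = 1.95e-05), from a log2 fold change of 0.03 in footprints and -1.73 in RNA, and 1.23 after the correction for GC content and length (adjusted p = 2.47e-05). Pelo had 2.36 (SE 0.42, adjusted p = 7.16e-04), which compares the few footprints and the few RNA fragments that remained. Without Pelo-/- RNA replicate 1 this value was 4.24 and without replicate 2 it was 1.65, as the RNA change of Pelo was then -8.06 and -5.45. Hbs1l had -0.46 (SE 0.14, adjusted p = 0.0159), from -0.37 in footprints and 0.09 in RNA, and without Pelo-/- RNA replicate 2 this came to -0.33 (adjusted p = 0.104). Gtpbp1 had 0.30 (SE 0.11, adjusted p = 0.0487), a call lost in 5 of the 7 other fits with all libraries, among them DESeq2 (0.0538), and kept with the GC correction (0.43, adjusted p = 0.00357) and with TMM factors over both assays together (0.36, adjusted p = 0.0246). In the MEFs labelled Upf2-/- none of the 5 was called, where 18% of 13302 genes were, with Gtpbp2 at -0.33 (SE 0.17, adjusted p = 0.190), and Gtpbp1 was called with the GC correction (0.40, adjusted p = 0.0235).

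By transcript, control MEFs held Hbs1l mostly as Hbs1l-209, which made up 71.8 ± 5.48% (SD, n = 3) of the Hbs1l TPM, and Hbs1l-201 made up 20.3 ± 4.36%. Isoform II, Hbs1l-203, made up 2.92 ± 0.597%, and Hbs1l-202 1.67 ± 0.829% (SD, n = 3). With estimated counts, which do not correct for length, the shares of Hbs1l-209 and Hbs1l-203 were 74.2 ± 5.27% and 2.56 ± 0.511% (SD, n = 3). The full-length forms together thus hold most of the RNA in either unit.

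In Hbs1l-/- MEFs the forms that contain exon 5 were low. Hbs1l-209 was at 0.00, 0.27 and 1.38 TPM against 19.8, 25.9 and 29.9 TPM in controls (log2 fold change of estimated counts -5.45, SE 1.03, edgeR adjusted p = 0.0658 over all transcripts). All mutant values lay below the controls, where 28.5% of all transcripts had groups apart, although the test missed the threshold, which it passed with DESeq2 (0.0112), with all 11 RNA libraries in 1 fit (0.014) and with the GC correction (0.0498). Hbs1l-206 was listed at 0 in 2 libraries and at 4.86e-10 TPM in the third. Hbs1l-201 was at 2.55, 2.62 and 1.43 TPM against 6.98, 8.04 and 5.95 TPM, and passed it (-1.70, SE 0.26, adjusted p = 0.0472). Reads of a transcript without exon 5 can only be assigned to annotated forms, and how kallisto divided them was not tested.

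Isoform II, which does not use exon 5, was at 1.14, 2.50 and 2.19 TPM in Hbs1l-/- MEFs and at 1.04, 0.93 and 1.03 TPM in controls. All 3 mutant libraries were above the controls, 1 of them narrowly, and the test missed the threshold (log2 fold change 0.93, SE 0.35, edgeR adjusted p = 0.239). As the full-length forms were low, its share of Hbs1l TPM came to 32.8 ± 10.3% (SD, n = 3), against 2.92% in controls. Among all members, 2 transcripts were called in this comparison, Hbs1l-201 and the main form of Gtpbp1 (0.60, SE 0.08, adjusted p = 0.0430), where 1.31% of 36633 transcripts were. Neither call held in any of the 6 fits that leave out 1 library, in which no transcript was called.

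**Figure D5:**
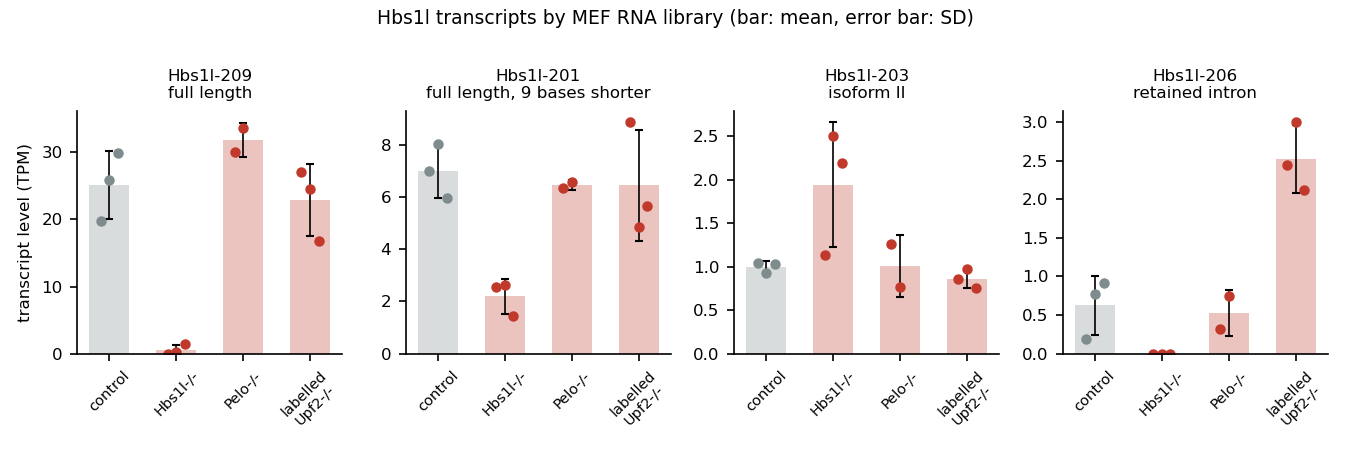
Level of 4 Hbs1l transcripts in every MEF RNA library (TPM; bars are means, error bars SD, 3 libraries per group and 2 for Pelo-/-). In Hbs1l-/- MEFs Hbs1l-209 is at 0.00 to 1.38 TPM and Hbs1l-203 at 1.14 to 2.50 TPM, and Hbs1l-206 is at 2.12 to 3.00 TPM in the MEFs labelled Upf2-/-.

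In Pelo-/- MEFs Hbs1l-209 made up 78.4 ± 0.136% and Hbs1l-203 2.53 ± 1.08% of Hbs1l TPM (SD, n = 2), and no Hbs1l transcript was called. The single Pelo transcript (log2 fold change -6.18, SE 0.60, edgeR adjusted p = 0.0327) and the main form of Abce1 (-1.79, SE 0.21, adjusted p = 0.0368) were the 2 called, where 2.37% of 34903 transcripts were, and none was called in the 5 fits that leave out 1 library. This form of Abce1 was at 19.1 and 11.6 TPM against 38.1, 52.6 and 49.6 TPM.

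In the MEFs labelled Upf2-/-, Hbs1l-206, a form annotated with a retained intron and no coding sequence, was at 2.45, 3.00 and 2.12 TPM against 0.19, 0.77 and 0.91 TPM in controls. Its exons run from exon 4 into the first 216 bases of the isoform II exon and then into exon 5. It made up 7.65 ± 1.40% of Hbs1l TPM there and 1.70 ± 0.931% in controls (SD, n = 3). The groups were apart, as for 32.6% of all transcripts tested, but the adjusted p was 0.0867 (log2 fold change 1.91, SE 0.50), and it passed the threshold with DESeq2. The main form of Gtpbp2 was at 7.74, 8.65 and 9.29 TPM against 4.37, 4.76 and 5.22 TPM, all above the controls (0.81, SE 0.15, edgeR adjusted p = 0.0351). It was the 1 member transcript called, where 5.35% of 40620 transcripts were, and it was not called in any of the 6 fits that leave out 1 library (adjusted p of 0.0629 to 0.12).

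Factors that work with the 5 genes were read as 4 lists. In embryos and cerebella none of the tested members of any list was called by edgeR (6 of 6 termination and recycling factors, 18 of 18 for collision sensing and ribosome quality control and 13 of 13 for the Ski complex and exosome were tested in both, and 7 of 8 translational GTPases in embryos and 8 of 8 in cerebella), where 1.87% and 0.0624% of all genes were. The medians of the lists lay between -0.10 and 0.18 on the log2 scale in embryos and between -0.16 and -0.02 in cerebella, against 0.01 and 0.00 for all genes.

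The Ski complex and exosome, which degrade RNA from the 3′ end, had more genes with higher than with lower footprints in the MEF mutants against their controls. Of 13 genes, 8 rose in Hbs1l-/-, 9 in Pelo-/- and 9 in labelled Upf2-/- MEFs, and none fell, where 17.4%, 22.9% and 22.3% of all genes rose. Their medians were 0.30, 0.40 and 0.31 on the log2 scale, against -0.01, 0.00 and 0.00 for all genes. Dis3, the exosome's nuclease, rose by 0.65 (SE 0.08, edgeR adjusted p = 3.1e-05) in Hbs1l-/-, by 0.56 (SE 0.08, adjusted p = 3.2e-04) in Pelo-/- and by 0.58 (SE 0.08, adjusted p = 2.11e-04) in labelled Upf2-/- MEFs. Exosc3 rose by 0.46, 0.69 and 0.82 in the 3 mutants, and Exosc2 by 1.01 in those labelled Upf2-/-. The 3 comparisons share their controls.

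The RNA of the same list did not follow in each mutant. In Hbs1l-/- MEFs 7 of 13 rose and none fell, where 12.7% of all genes rose and 10.4% fell, with Exosc7 at 0.62 (SE 0.12, edgeR adjusted p = 0.00747). In Pelo-/- MEFs none rose and 4 fell, where 15.5% of all genes rose and 16.6% fell, among them Exosc9 (-1.46, SE 0.14, adjusted p = 9.39e-04) and Ttc37 (-0.84, SE 0.17, adjusted p = 0.0111), and with the GC correction 3 fell. In the MEFs labelled Upf2-/- 2 rose, where 13.2% of all genes rose and 6.76% fell, namely Exosc2 (0.84, SE 0.11, adjusted p = 5.47e-04) and Exosc5 (0.74, SE 0.15, adjusted p = 0.00607). Relative to RNA, 9 of 13 rose in Pelo-/- MEFs, with and without the correction, where 21.9% of all genes did without it. None of the 13 was called relative to RNA in Hbs1l-/- MEFs, and in the MEFs labelled Upf2-/- 3 were, all higher (6 with the correction), beside 0.0152% and 18% of all genes called in either direction.

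Among the 18 genes for collision sensing and ribosome quality control, 7 rose and 1 fell in footprints of Hbs1l-/- MEFs, 5 rose and 3 fell in Pelo-/- and 7 rose and 1 fell in labelled Upf2-/- MEFs, where 17.4%, 22.9% and 22.3% of all genes rose and 16.7%, 21.2% and 21.1% fell. Ascc3, the helicase that takes apart collided ribosomes, rose in footprints by 0.42, 0.70 and 0.45, and Map3k20, the kinase ZAK that senses collisions, had log2 fold changes of -0.49, -0.60 and -0.60 (edgeR adjusted p of at most 0.00178 for both in each). Zfp598, the ubiquitin ligase that marks collided ribosomes, rose by 0.26 (SE 0.09, adjusted p = 0.0425) in Hbs1l-/- and by 0.47 (SE 0.07, adjusted p = 5.14e-04) in Pelo-/- MEFs. The list's medians were 0.05, -0.03 and 0.11, beside -0.01, 0.00 and 0.00 for all genes, and with the GC correction 4 rather than 7 rose in Hbs1l-/- MEFs. In RNA of the list, 2 rose and 2 fell in Hbs1l-/-, 1 rose and 4 fell in Pelo-/- and 4 rose and 1 fell in labelled Upf2-/- MEFs, where 12.7%, 15.5% and 13.2% of all genes rose and 10.4%, 16.6% and 6.76% fell. With the GC correction these were 3 and 2, 1 and 6, and 2 and 1. The RNA of Ascc3 in Pelo-/- MEFs fell (-1.53, SE 0.27, edgeR adjusted p = 0.00688), opposite to its footprints.

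Of the 6 termination and recycling factors, footprints of 1 changed in each MEF mutant, beside 34.1%, 44.1% and 43.4% of all genes. Footprints of Gspt1, which encodes eRF3, rose in Hbs1l-/- MEFs (0.22, SE 0.07, edgeR adjusted p = 0.0211), those of Denr in Pelo-/- MEFs (0.33, SE 0.12, adjusted p = 0.0432, with overlapping groups), and those of Mcts1 were lower in the MEFs labelled Upf2-/- (-0.30, SE 0.10, adjusted p = 0.0248). With the GC correction none of the 6 rose and 1 fell in Pelo-/- MEFs. The RNA of Etf1, Denr and Mcts1 fell in Pelo-/- MEFs (-0.55, -0.61 and -1.28), where 16.6% of all genes fell, and with the GC correction 2 of the 6 were lower. Among 8 related translational GTPases, footprints of 4 rose in Hbs1l-/- and 3 in Pelo-/- MEFs and none fell, and 4 rose and 1 fell in labelled Upf2-/- MEFs, where 17.4%, 22.9% and 22.3% of all genes rose and 21.1% fell in the last. Eef2, the elongation factor for translocation, rose in footprints of all 3 mutants by 0.36, 0.38 and 0.27. Its relative Eef1a1 rose by 0.35 and 0.22 in Hbs1l-/- and Pelo-/- MEFs and was lower in those labelled Upf2-/- (-0.31, SE 0.09, adjusted p = 0.0154).

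Neighbouring genes were read beside the members, since the counting of overlapping genes could divide fragments. Itga1, the integrin gene that contains Pelo on the same strand, had lower footprints in Hbs1l-/- (log2 fold change -0.70, SE 0.08, edgeR adjusted p = 3.74e-05) in Pelo-/- MEFs (-0.69, SE 0.09, adjusted p = 2.76e-04) and in the MEFs labelled Upf2-/- (-0.27, SE 0.09, adjusted p = 0.0257), where Pelo was at -0.06 in Hbs1l-/- MEFs and at -0.12 in those labelled Upf2-/-. Anapc10, which begins 79 bases from Abce1 on the other strand, had lower RNA in Pelo-/- MEFs as well (-0.87, SE 0.11, edgeR adjusted p = 0.00259), where 16.6% of all genes fell. Its footprints were lower in Hbs1l-/- (-0.35, adjusted p = 0.0253) and labelled Upf2-/- MEFs (-0.55, adjusted p = 0.00211), where 16.7% and 21.1% of all genes fell. Abce1 footprints had risen in the former and did not pass the threshold in the latter. Josd1, 2925 bases from Gtpbp1, had higher RNA in all 3 mutants (0.59, 0.54 and 0.49, edgeR adjusted p of at most 0.0103), where 12.7%, 15.5% and 13.2% of all genes rose. Gtpbp1 RNA was called in Hbs1l-/- MEFs only. Polh, 1984 bases from Gtpbp2, had higher footprints in all 3 (0.54, 0.47 and 0.31, adjusted p of at most 0.0198), where 17.4%, 22.9% and 22.3% of all genes rose. Polh RNA was called in Hbs1l-/- MEFs only (0.49, adjusted p = 0.00708), and Gtpbp2 footprints in those labelled Upf2-/- only. On the other strand, the non-coding genes 4930455C13Rik, Gm10734, Gm26884 and Gm27006 overlap Hbs1l, Pelo, Gtpbp1 and Abce1, in that order. Gm49395, annotated as protein-coding, overlaps Pelo on the same strand, as Itga1 does. The RNA kit keeps the strand, but the kallisto settings that the authors list include no strand option. Reads of genes that overlap on opposite strands may therefore not have been told apart.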

How the data were processed

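Ribosome footprints of embryos, cerebella and MEFs and RNA of MEFs were analysed from the tables deposited per sample. For footprints, the authors aligned reads with Bowtie2 2.2.3 to remove rRNA, snoRNA and tRNA, mapped the rest to mm10 with HISAT2 2.1.0 and counted footprints over coding sequence with featureCounts, and the deposited values are raw counts per gene. For RNA, the authors ran kallisto 0.42.4 on Gencode M24 transcripts, and deposited estimated counts and TPM per transcript. Gene positions, exons and transcript sequences are those of Gencode M21 here.

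Genotypes were compared with edgeR 4.0.16 (quasi-likelihood test, filterByExpr, TMM factors, Benjamini-Hochberg adjustment over all genes tested, threshold 0.05) in R 4.3.3, with 100 histone genes left out of footprint tables. Estimated counts were rounded and summed per gene, or tested per transcript. Footprints per RNA and differences between tissues or genotypes were interaction terms. SEs are the log2 fold change over the square root of F. CPM are scaled within each comparison, so values of a shared control differ slightly. Same-numbered MEF controls were summed where tissues were compared. The statistics were tested on simulated data. The members, lists and markers were chosen with earlier results of these data known. Named genes are the 5 members, Upf2, at most 4 called genes per list with the largest change, adjacent coding genes and the 3 genes most correlated with each member (mean of at least 5 CPM). Alternatives were DESeq2 1.42.0, RLE factors, no low-count filter, a replicate block, leaving out each library, keeping histone genes, protein-coding transcripts, all 11 RNA libraries in 1 fit, summed or single-pool controls and, chosen after seeing the data, a spline on GC content and length (5 df). Embryo libraries, at 2634480 to 7298812 footprints, are the shallowest. Replicates are separate embryo pools, mice or cultures. One Pelo-/- RNA library was left out by the authors and is not analysed here.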

Additional observations from a re-analysis of the deposited data

Results flagged for a closer look

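The change of Hbs1l footprints with its own deletion differed between tissues. The log2 difference between embryos and cerebella was -2.11 (SE 0.39, edgeR adjusted p = 0.0252), and it lost its call without embryo mutant replicate 2, without any 1 of the 3 embryo controls, without cKO replicate 1, or without cerebellum control replicate 1 or 2 (adjusted p of 0.0609 to 0.0804). The log2 difference between cerebella and MEFs was 2.68 (SE 0.25, edgeR adjusted p = 1.35e-04). Cre was expressed in part of the cells of the cerebella and the deletion was in all cells of the embryos. Its part in the differences was not tested and cannot be told apart from tissue and batch.

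The change of Gtpbp1 footprints on loss of Hbs1l differed between embryos and MEFs by -0.78 on the log2 scale (SE 0.17, edgeR adjusted p = 0.0106). Gtpbp1 was lower in MEF controls than in wild-type embryos, so the groups also start from different levels. Batch and tissue go together in each of these differences.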

How the results depend on the processing

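Deletion of Hbs1l or Pelo, the rise of Gtpbp1 footprints in the 3 MEF mutants and the fall of Abce1 RNA in Pelo-/- MEFs kept their direction under each alternative run. Over the results and settings that keep all libraries, 550 values kept direction and side of the threshold, 61 counts or values moved, 19 lost and 17 gained their call, and 13 changed sign. With 1 library left out these numbers were 631, 86, 69, 10 and 27. The causes were not tested.

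The replicate numbers were tried as a block. Same-numbered mutant and control libraries deviated together with correlations of 0.018 to 0.041 in embryos, -0.23 to 0.269 in cerebella and -0.233 to 0.331 in the 6 MEF comparisons, so the numbers were not taken to pair the samples, although every library correlated best with its own number in embryos and in footprints of Hbs1l-/- MEFs. With the block, edgeR called 564 genes in embryos (214 without it), 0 in cerebella (9), 2955 in RNA of Pelo-/- MEFs (4727), 1 in footprints per RNA of Hbs1l-/- MEFs (2), and 0, 0 and 112 transcripts in Hbs1l-/-, Pelo-/- and labelled Upf2-/- MEFs (481, 826 and 2175). Hbs1l was then at -1.50 in cerebella (adjusted p = 0.0567) and at -0.27 in footprints of labelled Upf2-/- MEFs (0.0513), Gtpbp1 at 0.29 in footprints per RNA of Pelo-/- MEFs (0.0875), and Abce1 at 0.0033 in footprints of labelled Upf2-/- MEFs, and the call of Hbs1l-201 was lost with all others of that table.

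DESeq2 called 415 genes in embryos, 476 in cerebella, 340 in footprints per RNA of Hbs1l-/- MEFs, 3498, 4137 and 5467 transcripts in the 3 MEF mutants, and 586 and 1093 genes in the differences of embryos and of MEFs from cerebella (107 and 703 with edgeR). Without the filter on low counts the numbers were 703 in embryos, 16 in cerebella, 22 in footprints per RNA of Hbs1l-/- MEFs and 265 transcripts in Hbs1l-/- MEFs. With the GC and length correction they were 5 in cerebella, 6 in footprints per RNA of Hbs1l-/- MEFs and 1087, 378 and 3505 transcripts. With all 11 RNA libraries in 1 fit, 1494, 1750 and 3418 transcripts were called. Keeping histone genes gave 67 in cerebella, protein-coding transcripts alone gave 0 in footprints per RNA of Hbs1l-/- MEFs, and summed controls gave 2304, 3691 and 2037 genes in the differences between Pelo-/- and Hbs1l-/-, Pelo-/- and labelled Upf2-/-, and labelled Upf2-/- and Hbs1l-/- MEFs (695, 1648 and 608).

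Leaving out 1 library, the number called ranged from 28 to 2309 in embryos (highest without mutant replicate 1), from 0 to 560 in cerebella (highest without control replicate 3), from 1817 to 2663 in RNA of Hbs1l-/-, from 1506 to 4802 of Pelo-/- and from 1800 to 3201 of labelled Upf2-/- MEFs, from 0 to 39 and from 1375 to 2778 in footprints per RNA of Hbs1l-/- and labelled Upf2-/- MEFs, and for transcripts it was 0 in all 6 fits for Hbs1l-/- and all 5 for Pelo-/- MEFs and from 567 to 1278 for labelled Upf2-/- MEFs. For the differences between tissues it ranged from 8 to 1123, from 457 to 2757 and from 284 to 2046 (embryos and cerebella, embryos and MEFs, cerebella and MEFs), and between MEF mutants from 384 to 735, from 1097 to 1743 and from 353 to 583.

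Among single values that lost a call, Hbs1l in labelled Upf2-/- footprints was at -0.27 with DESeq2 (adjusted p = 0.0869) and at -0.32 to -0.19 with 1 library left out, Hbs1l in cerebella at -1.56 to -1.42, Abce1 in Hbs1l-/- MEF footprints at 0.18 to 0.33, and Hbs1l per RNA in Pelo-/- MEFs at -0.61 to -0.33. Gtpbp1 per RNA in Pelo-/- MEFs was at 0.30 with DESeq2 (0.0538), 0.30 with RLE factors (0.0518), 0.32 without the filter (0.0815), 0.30 with protein-coding transcripts (0.0514) and 0.24 to 0.33 with 1 library left out. The differences of Hbs1l between embryos and cerebella and of Gtpbp2 between labelled Upf2-/- and Hbs1l-/- MEFs were at -2.62 to -1.74 and 0.57 to 0.73. In controls, Hbs1l in embryos against cerebella was at 0.30 with DESeq2 (0.0895), 0.27 without the filter (0.116) and 0.24 to 0.37 with 1 library left out, and Hbs1l in MEFs against cerebella at 0.26 with controls of 1 pool (0.0696) and 0.29 to 0.44. Pelo in MEFs against embryos was at -0.29 with DESeq2 (0.0556), -0.21 without the filter (0.132) and -0.36 to -0.16, and Gtpbp2 at 0.43 with controls of 1 pool (0.0610) and 0.39 to 0.63.

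Some values that were not called changed sign. With the GC and length correction these were Abce1 in footprints of embryos (-0.00083, from 0.24 without it), cerebella (-0.026), Pelo-/- (-0.0069) and labelled Upf2-/- MEFs (0.0085), Pelo in footprints of Hbs1l-/- MEFs (0.022), Gtpbp2 RNA in Pelo-/- MEFs (-0.0079, from 0.15), and per RNA Gtpbp1 in Hbs1l-/- (0.14) and Pelo in labelled Upf2-/- MEFs (0.21). With summed controls Abce1 footprints were at -0.0029 in Pelo-/- and 0.023 in labelled Upf2-/- MEFs, and with joint TMM factors Gtpbp1 per RNA in Hbs1l-/- MEFs was at 0.032. Hbs1l in MEFs against embryos was at 0.041 without the filter and -0.097 to 0.057 with 1 library left out. So left out, footprints ranged in cerebella from -0.12 to 0.11 for Pelo, -0.10 to 0.056 for Gtpbp1 and -0.089 to 0.092 for Abce1, in Hbs1l-/- MEFs from -0.15 to 0.024 for Pelo and -0.11 to 0.044 for Gtpbp2, and for Abce1 from -0.027 to 0.12 in Pelo-/- and -0.075 to 0.082 in labelled Upf2-/- MEFs. Hbs1l RNA ranged from -0.049 to 0.22 in Pelo-/- and -0.23 to 0.012 in labelled Upf2-/- MEFs, and footprints per RNA from -0.063 to 0.055 for Gtpbp1 in Hbs1l-/-, -0.11 to 0.30 for Gtpbp2 in Pelo-/- and -0.085 to 0.031 for Pelo in labelled Upf2-/- MEFs. Depth limits Hbs1l where it was deleted, at 11 to 25 footprints a library in embryos and 10 to 37 in MEFs.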
